A study of Mus musculus with 4 samples.

Results

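The cells described here are Car1 Klf1 erythroid progenitors found inside the LSK gate of mouse bone marrow. Members were selected on measured transcripts, namely barcodes with 3 or more UMIs (unique molecular identifiers, each counting 1 captured transcript) of Car1 and 1 or more of Klf1, with no Cd79a UMI and under 5 Elane UMIs. Only barcodes with 500 to 7500 genes and under 10% mitochondrial UMIs were considered. This gave 551 members among 37344 kept cells, or 1.48%. The series holds 4 single-cell RNA libraries, each from LSK cells (lineage marker-negative, Sca-1+, Kit+) sorted after Cd117 bead enrichment from the pooled marrow of 5 mice aged 8 to 12 weeks. The control carried Vav1-iCre alone, a Cre active in blood-forming cells, and all mutants carried it too. Ikk2CA mice also carried 1 floxed Ikk2-CA allele (R26StopFLikk2ca), which encodes a constitutively active kinase that turns on NF-κB. Jak2V617F mice carried 1 floxed Jak2 V617F allele, which encodes the activated kinase of myeloproliferative disease, and double mutants carried both. According to the design text, the alleles were crossed with an NF-κB-responsive EGFP reporter. Every genotype had 1 pooled library, so no test between genotypes was possible. Intervals below are 95%, cover counting error only, and say nothing of the spread between mice.

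Red cell formation starts in progenitors that switch from the transcription factor Gata2 to Gata1 and then to Klf1, which turns on many red cell genes. Car1 encodes carbonic anhydrase 1, an enzyme that appears early on this path, while haemoglobin comes later. The hormone erythropoietin drives survival and growth of these cells through its receptor Epor, which signals through Jak2 to the factor Stat5. NF-κB is a family of factors that Ikk2 frees from inhibitors such as Nfkbia, and it is best known for inflammatory and immune genes.

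Members made up the largest share of the Ikk2CA library and the smallest of the double mutant. There were 148 members among 8055 control cells, or 1.84% (1.56 to 2.15, exact Clopper-Pearson). In Ikk2CA there were 226 of 9865, or 2.29% (2.005 to 2.61). In Jak2V617F there were 155 of 14156, or 1.09% (0.930 to 1.28). The double mutant had 22 of 5268, or 0.418% (0.262 to 0.632). Relative to control the share was 1.25 times as large in Ikk2CA (1.01 to 1.54), 0.596 times in Jak2V617F (0.473 to 0.752) and 0.227 times in the double mutant (0.138 to 0.357). The double-mutant share was below that of each single mutant by more than the counting intervals. When every cell was thinned to 5000 UMIs and gated on the thinned counts, the shares were 1.04% (0.818 to 1.30), 1.21% (0.995 to 1.45), 0.625% (0.496 to 0.778) and 0.176% (0.0804 to 0.333). The order stayed the same, but the ratio of Ikk2CA to control was then 1.16 (0.859 to 1.57), an interval that includes 1. Without the cells of highest doublet score the Ikk2CA ratio was 1.09 (0.875 to 1.37). Such scores were held by 35 of the 226 Ikk2CA members and 6 of the 148 control members. These were 15.5% of Ikk2CA members against 8.33% of all its kept cells, and 4.05% against 8.80% in control. In Jak2V617F the shares were 9.03% and 13.4%, and in the double mutant 4.55% and 4.69%.

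**Figure D1:**
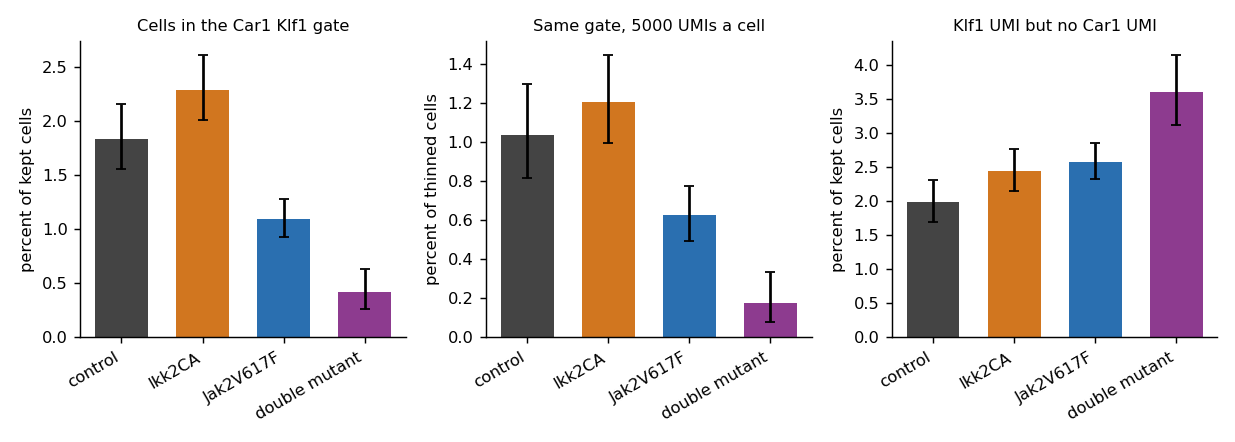
Shares of cells by library with 95% exact binomial intervals: members as a percent of kept cells (left), members after thinning to 5000 UMIs a cell (middle) and cells with a Klf1 UMI but no Car1 UMI (right). The double-mutant bar is the lowest for members, at 0.418%, and the highest for Klf1 without Car1, at 3.61% before thinning.

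Cells that had a Klf1 UMI but no Car1 UMI did not follow that order. Under the same limits on Cd79a and Elane, they were 1.99% of control cells (160 cells, 1.69 to 2.32), 2.44% of Ikk2CA (241 cells), 2.58% of Jak2V617F (365 cells) and 3.61% of the double mutant (190 cells, 3.12 to 4.15). After thinning these shares were 0.818%, 1.21%, 1.16% and 0.879%, and the control and double-mutant intervals overlapped. Gata1, the main transcription factor of red cell and platelet precursors, had a UMI in 5.72%, 10.8%, 7.42% and 10.4% of kept cells. Of these Gata1-positive cells, members were 25.4% (21.5 to 29.6) in control, 18.1% (15.8 to 20.6) in Ikk2CA, 12.8% (10.8 to 14.9) in Jak2V617F and 3.85% (2.40 to 5.82) in the double mutant. With thinned counts the 4 values were 16.4%, 9.43%, 6.65% and 1.83%, the last from 3 of 164 cells. In both forms the member share of Gata1-positive cells was highest in control, and the double mutant was lowest.

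Depth and the share of cells with Xist also differed between the libraries. Median UMIs per member were 22400.5 in control, 23393 in Ikk2CA, 27664 in Jak2V617F and 36263 in the double mutant, against 10560, 17607, 11021 and 24849 in the other kept cells. Members without an Xist UMI, the transcript of the inactive X chromosome, were 35.1%, 88.1%, 100% and 77.3%. In the other kept cells these shares were 43.7%, 75.7%, 99.7% and 71.1%. A difference in the sex of the pooled mice cannot be told apart from genotype in these libraries. Among cells without an Xist UMI, the share ratios were 1.79, 0.740 and 0.306 for Ikk2CA, Jak2V617F and the double mutant. Of the deposited barcodes that failed the filters, 6 of 1895 in control, 1 of 465 in Ikk2CA, 3 of 1464 in Jak2V617F and 0 of 506 in the double mutant met the gate. No barcode was a member in more than 1 library.

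Red cell genes marked the members as a whole, in keeping with the label, though not every cell (described further on). The gate used Car1 and Klf1, and every gene compared between members and other cells rests on that same split, so these values are descriptions. Of 33 measured genes on a list of erythroid commitment, 24 to 26 were at least 2-fold higher in members than in the other kept cells of their library, where 4.65% to 7.15% of all 3634 genes were. Ermap, a membrane protein of red cell precursors, was at 206, 138, 189 and 102 CPM (UMIs of the gene in the summed members, scaled to the same total in each library) in control, Ikk2CA, Jak2V617F and the double mutant, an order kept below. In the other cells it was at 0.427, 0.722, 0.644 and 0.0354 CPM. Genes that, like Ermap, reached the 50 CPM needed to be measured in members alone had to be higher there. Rhd, the Rh blood group antigen, was at 206, 116, 66.8 and 100.1 CPM in members and at 0.376, 1.16, 0.678 and 0.219 CPM outside. The level of both was thus far higher in members than outside, although cells with a UMI also lay outside the gate. Cells with a Rhd UMI numbered 82, 82, 66 and 5 among members and 32, 46, 40 and 11 among the much larger number of other cells. For Ermap they numbered 98, 99, 100 and 7 inside and 39, 35, 48 and 5 outside. Sphk1, a kinase that makes the lipid sphingosine-1-phosphate, was at 109.9, 66.3, 63.8 and 45.7 CPM against at most 0.220 CPM outside. Rhag, the partner of the Rh antigen, was at 72.9, 50.3, 83.3 and 54.4 CPM and the water channel Aqp1 at 244, 161, 198 and 134 CPM. Epor was at 91.5, 60.8, 66.1 and 57.7 CPM against 2.55, 2.66, 3.07 and 3.19 CPM in the other cells, and Gata1 at 109, 106, 109 and 99.04 CPM against 5.64, 8.99, 7.75 and 7.50 CPM. Gata1 thus differed little among the members of the 4 libraries. In the mm10 annotation Car1 lies at chr3:14766216-14808368 (minus strand), Klf1 at chr8:84901928-84905291 (plus), Ermap at chr4:119175457-119190011 (minus) and Rhd at chr4:134864536-134896172 (plus).

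The promoter of Rhd is printed because it is one of the most gate-restricted genes and differed among the mutants. It covers the 250 bases before the RefSeq start (GRCm38.p6, chr4:134864286-134864535, plus strand). The capitals mark AGATAA, the usual letters of a Gata1 site, 43 bases before the start.
Rhd: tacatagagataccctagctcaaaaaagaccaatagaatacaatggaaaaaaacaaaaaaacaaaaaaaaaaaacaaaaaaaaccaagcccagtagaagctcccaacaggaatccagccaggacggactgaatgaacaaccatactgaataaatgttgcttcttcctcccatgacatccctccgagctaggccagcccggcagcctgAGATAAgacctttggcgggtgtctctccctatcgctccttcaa
AGATAA or its reverse TTATCT occurs in 9.99% of the 32851 mouse promoter windows of this length, and such a match is no proof of a binding site. The window of Epor has 1 such match as well.

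Alas2 and Slc4a1, genes of later red cell stages, were low, and markers of other lineages were mostly lower than outside the gate. Alas2, the red cell enzyme of haem synthesis, was at 1.02, 9.59, 0.460 and 0 CPM, and the anion exchanger Slc4a1 at 1.02, 10.9, 2.53 and 0 CPM. All 10 measured lymphoid priming genes and all 7 B cell genes were at least 2-fold lower in members than in other cells in the 4 libraries, where 12.7%, 7.48%, 9.77% and 7.29% of all 3634 genes were. So were 10 to 12 of 13 granulocyte and monocyte genes. The gate itself limited Cd79a and Elane. Genes measured here reached 50 CPM in members or in other cells. In control members 0 lymphoid priming, 0 B cell and 4 granulocyte and monocyte genes did so, and in Ikk2CA members 1, 2 and 3. Most genes of these lists thus passed only through other cells, where they were high, so these counts were largely fixed by the filter. Summed megakaryocyte markers were at 146 CPM in control, 518 in Ikk2CA, 194 in Jak2V617F and 469 in the double mutant. The stem cell list was at 677, 1073, 937 and 945 CPM, against 2557, 1416, 2661 and 1902 CPM outside. Of the genes behind the sort, Kit was at 101, 92.7, 106 and 74.01 CPM in members. The Sca-1 gene Ly6a had 5.61, 51.5, 22.8 and 27.2 CPM in members, compared with 110.0, 239.5, 141 and 192 CPM outside, so its transcript was low in cells sorted for the protein. Cd34 was also lower in members, at 41.05, 18.4, 29.2 and 23.9 CPM against 444, 196, 338 and 266 CPM.

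Free RNA in the droplets was gauged from cells with 3 or more Cd79a UMIs and under 3 Car1 UMIs. These should lack red cell genes and had medians of 10788 to 28484 UMIs. After thinning to 5000 UMIs, a Klf1 UMI was seen in 0 to 0.195% of these cells and an Ermap UMI in 0 to 0.0649%, against 56.2% to 59.3% and 22.7% to 41.9% of members. A Car1 UMI was seen in 0 to 2.63% of the Cd79a-high cells and in 90.9% to 98.7% of members. Both groups were chosen partly on Car1, so this gap was partly fixed by the selection. Cells just inside and just outside the Car1 limit were few. With a Klf1 UMI present, cells with exactly 3 Car1 UMIs numbered 2, 10, 3 and 2, and those with 2 Car1 UMIs numbered 2, 6, 8 and 2. Cells with 3 or more Car1 UMIs but no Klf1 UMI numbered 27, 58, 25 and 3, with Ermap at 31.1, 2.02, 23.6 and 0 CPM. Members with exactly 1 Klf1 UMI numbered 36, 44, 24 and 6. In Ikk2CA those 44 cells, of 226, held no Ermap and no Rhd UMI and had Pf4, a platelet gene, at 1435 CPM. The 6 such double-mutant cells, of 22, also held no Ermap and no Rhd UMI, with Pf4 at 409 CPM. Ermap and Rhd thus did not bear out the label for these cells of either library. Other genes of the red cell list were present. Gata1, also a factor of platelet precursors, was at 92.6 CPM in the Ikk2CA cells and 86.7 CPM in the double-mutant cells. Epor was at 28.6 and 43.3 CPM and Blvrb at 167 and 260 CPM. With Klf1 at 2 or more UMIs the Ikk2CA log2 ratio of Pf4 to control was 4.58 in place of 5.96.

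Car1 UMIs per member reached from 3 to 561, with medians of 53.5, 33.5, 45 and 50, and medians of Klf1 were 4, 3, 4 and 3.5. Other genes varied with Car1. Members were put in 3 classes by Car1: 3 to 9 UMIs (18, 37, 20 and 5 cells in control, Ikk2CA, Jak2V617F and the double mutant), 10 to 49 (54, 93, 61 and 6 cells) and 50 or more (76, 96, 74 and 11 cells). Gata2, the factor of the earlier stage, was at 213, 199, 275 and 226 CPM in the lowest class and at 36.9, 58.1, 63.8 and 67.4 CPM in the highest. Apoe, an apolipoprotein made by several blood cell types, went the same way, from 1938, 972, 1532 and 1568 CPM to 399.5, 328, 451 and 591 CPM. In control, Ermap went from 0 through 84.1 to 251 CPM and Rhd from 9.67 through 61.0 to 256 CPM. Both were thus at their highest where Car1 was highest. The Jak2V617F library differed for Rhd, with 102, 64.0 and 64.2 CPM over the 3 classes, while its Ermap went from 72.0 to 233 CPM. Biliverdin reductase Blvrb went from 198 to 1045 CPM in control but only from 462 to 678 CPM in Jak2V617F. Median UMIs also went up with Car1, from 9519 to 40474.5 in control, so depth moves with the classes and its part was not tested.

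**Figure D2:**
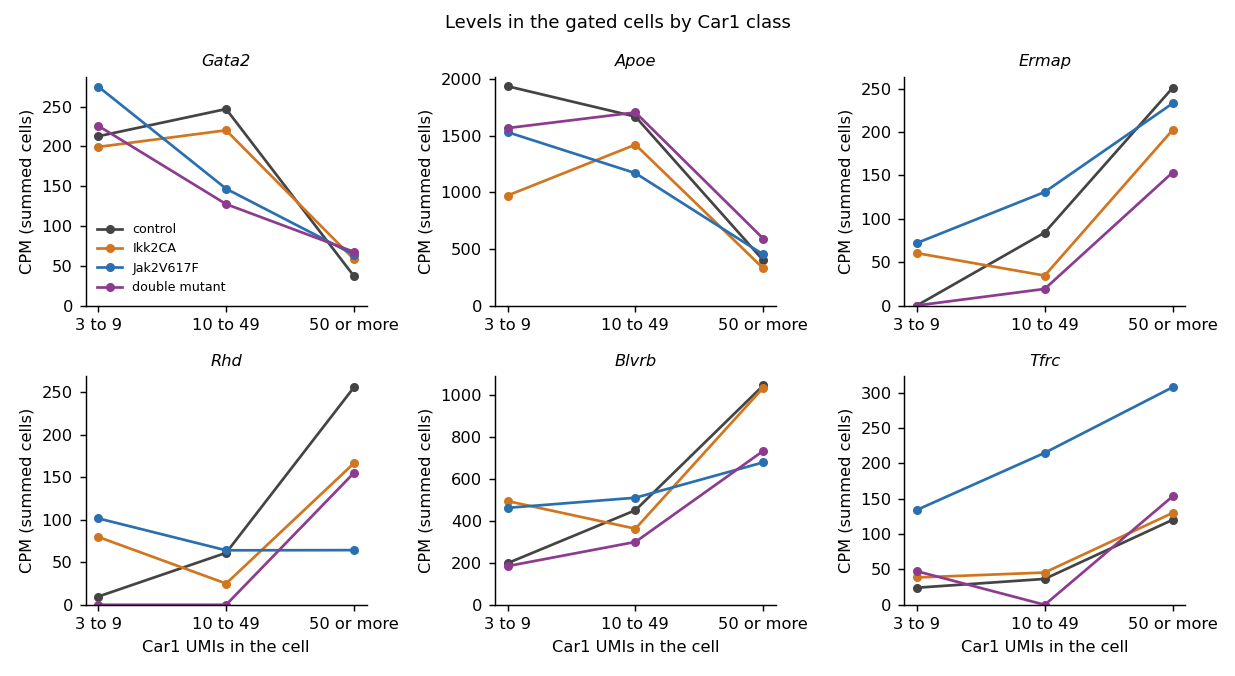
CPM of 6 genes in members summed by Car1 class, 1 line per library. Gata2 and Apoe are lowest and Ermap and Blvrb highest in the class with 50 or more Car1 UMIs, while Rhd in Jak2V617F stays near 64.0 CPM in the upper classes. The double-mutant points rest on 5, 6 and 11 cells.

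Within members, 2934 to 3010 genes reached 50 CPM in at least 1 library of a pair and were compared. Of these, 91 (3.1%) were at least 2-fold higher and 18 (0.613%) at least 2-fold lower in Ikk2CA than in control. In Jak2V617F, 23 (0.764%) were higher and 16 (0.532%) lower. The double mutant had 77 higher (2.6%) and 69 lower (2.33%). With 22 cells its sum holds 918856 UMIs, against 3922516 in control, 6776680 in Ikk2CA and 4343971 in Jak2V617F. The median log2 ratio over all compared genes was -0.11, 0.02 and -0.09 in that order. Taken relative to this median, the double mutant had 92 higher and 52 lower genes and Ikk2CA 110 and 11. All 3 comparisons share the same control library.

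Erythroid commitment genes were lower than control in Ikk2CA and in the double mutant, and mixed in Jak2V617F. In Ikk2CA 28 of 32 measured genes were below control (median log2 -0.30, beside -0.11 over all genes). Of these 1 was lower by at least 2-fold, against 0.613% of all genes. In the double mutant 28 of 32 were below control (median -0.56, beside -0.09) and 8 by at least 2-fold, against 2.33% of all genes. With all-gene medians below 0, most compared genes lay below control in these 2 libraries. In Jak2V617F 19 of 33 were below (median -0.08, beside 0.02). At least 2-fold lower were 3, against 0.532% of all genes, and 1 was at least 2-fold above. Genes low in a mutant passed the filter only through control and so had to be lower. Among those at 50 CPM or more in both sums, 0 of 30 genes in Ikk2CA, 2 of 30 in Jak2V617F and 4 of 28 in the double mutant were at least 2-fold lower. The single Ikk2CA gene was Atp1b2, a subunit of the sodium pump, at 89.2, 33.2, 108 and 43.5 CPM. Rhd, at the levels given above, had ratios to control of 0.565 (0.512 to 0.624) in Ikk2CA, 0.324 (0.282 to 0.371) in Jak2V617F and 0.486 (0.387 to 0.604) in the double mutant. All 3 mutants lay below control for Rhd, and Jak2V617F lay lowest. For Ermap the ratios were 0.670 (0.610 to 0.737), 0.916 (0.831 to 1.01) and 0.496 (0.396 to 0.615), so that of Jak2V617F was near 1. In log2 these Ermap ratios were -0.58, -0.13 and -1.01. With Car1 classes weighted as in control they were -0.37, 0.14 and -0.90. Tspo2, a red cell membrane transporter, was at 139, 95.8, 113 and 52.2 CPM. In the double mutant 1 of the 22 cells gave 42.6% of the Ermap UMIs, and 1 gave 45.7% of the Rhd UMIs. Leaving out the top cell of each gene in each library made the double-mutant log2 ratios -1.60 for Ermap and -1.69 for Rhd.

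A few genes, taken from the lowest ratios of the mutants to the same control, were lower in all 3 mutant libraries. Tspan8, a tetraspanin of the cell surface, was at 65.01, 20.4, 18.9 and 19.6 CPM, with ratios of 0.313 (0.253 to 0.387), 0.290 (0.224 to 0.374) and 0.301 (0.176 to 0.486). Prss50, a serine protease gene, was at 58.6, 23.5, 19.8 and 3.26 CPM. Slc25a21, a mitochondrial carrier, was at 119, 52.2, 52.9 and 42.4 CPM. The control level of each of these 3 genes was more than 2-fold that of every mutant. Tspan8 and Prss50 passed the filter only through control, and so had to be lower in each mutant. The protease gene Ctse was at 184, 116, 63.8 and 59.9 CPM and so passed 2-fold in Jak2V617F and the double mutant. Gatm, an enzyme of creatine synthesis, was at 176, 58.7, 99.9 and 57.7 CPM and Spire1, an actin nucleator, at 71.6, 27.7, 48.3 and 19.6 CPM, both past 2-fold in Ikk2CA and the double mutant. Other cells also had less Gatm in Ikk2CA, at 17.6 against 45.4 CPM. Klf3, a factor induced by Klf1, was at 9.79 CPM from 9 UMIs in the double mutant against 61.2 CPM in control.

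**Figure D3:**
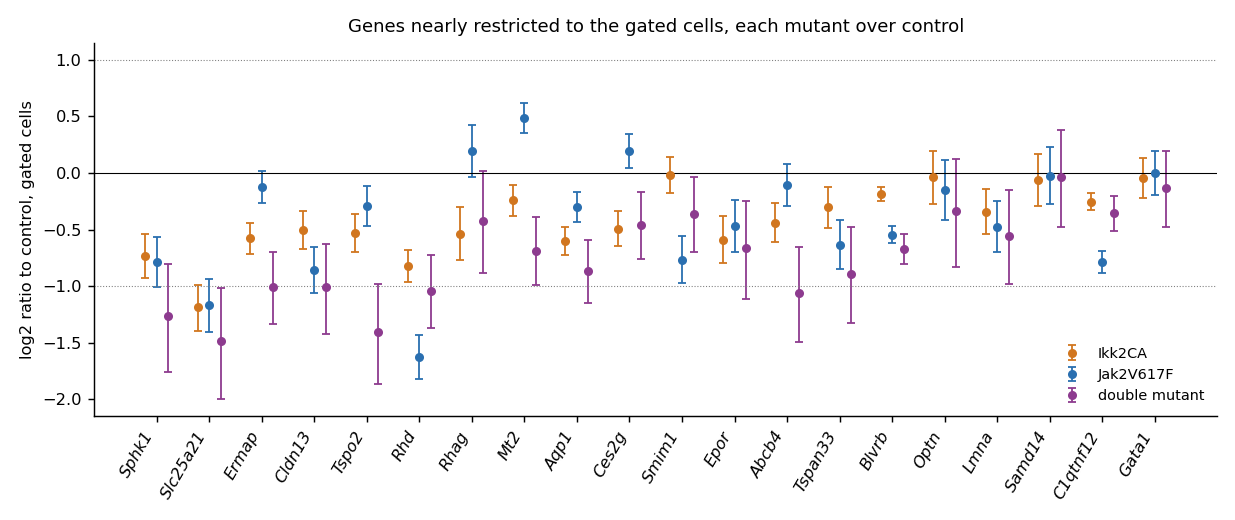
Log2 ratio of each mutant to control within members for the 20 genes most restricted to the gate, with 95% exact binomial intervals that cover counting error only. Dotted lines mark 2-fold. Points of the double mutant reach from -1.49 (Slc25a21) to -0.04 (Samd14), and Rhd in Jak2V617F lies at -1.63.

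Of 11 measured haem synthesis and iron genes, 10, 9 and 10 were below control in Ikk2CA, Jak2V617F and the double mutant (median log2 -0.22, -0.23 and -0.35, beside -0.11, 0.02 and -0.09 over all genes). At least 2-fold lower were 1, 0 and 1 of them, and no gene at 50 CPM or more in both sums was. Fech, the enzyme that puts iron into haem, was at 80.8, 37.9, 50.6 and 35.9 CPM. Its ratio to control was 0.469 (0.397 to 0.555) in Ikk2CA and 0.444 (0.301 to 0.637) in the double mutant. Cpox, an earlier enzyme of the pathway, was at 207, 149, 219.8 and 113 CPM and Urod, another enzyme of haem synthesis, at 149.9, 118, 86.1 and 93.6 CPM. The ferritin chain Fth1, which stores iron, was at 3158, 3022, 2684 and 2532 CPM and varied little. Adult globins were uneven. Hbb-bs, a beta globin, was at 129, 1823, 127 and 50.1 CPM, and Hba-a1, an alpha globin, at 126, 956, 41.9 and 25.03 CPM. Of 4 measured globins in the double mutant, 3 were at least 2-fold lower than control and 1, the beta globin Hbb-bt, at least 2-fold higher. In control 51.6% of the Hbb-bs UMIs came from 1 member, in Ikk2CA 34.8%, in Jak2V617F 59.2% and in the double mutant 78.3%. Outside the gate Hbb-bs was at 7.74, 395, 68.5 and 57.03 CPM, also highest in Ikk2CA. After thinning, a Hbb-bs UMI was seen in 17.0% of Ikk2CA members, 9.41% of its other cells and 9.27% of its Cd79a-high cells. In control these shares were 14.1%, 2.95% and 1.32%, so the share in cells that should lack globin was higher in Ikk2CA. Hba-a1 and Hba-a2 are near-identical copies, so their separate counts are uncertain. Globin of the Ikk2CA members was highest in the lowest Car1 class, with Hbb-bs at 5374 CPM against 1404 and 1293 CPM in the upper classes. Whether this order rests on the 1 member with 34.8% of the Hbb-bs UMIs was not tested.

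Several genes separated the libraries with Ikk2-CA from the others, among them known NF-κB targets. Tesc, a calcium-binding protein also called tescalcin, was at 1.02, 109.9, 0.921 and 79.4 CPM. Only the 2 libraries with the Ikk2-CA allele were high, at ratios to control of 108 (41.9 to 397) and 77.9 (29.2 to 294). A Tesc UMI was seen in 73.9% of Ikk2CA and 77.3% of double-mutant members, against 2.03% and 2.58% in control and Jak2V617F. In the other kept cells Tesc was at 0.610, 8.95, 1.32 and 5.68 CPM, so the level in members was 12.3 and 14.0 times that outside in the 2 Ikk2-CA libraries. Ehd3, an endosome protein, was at 1.27, 71.4, 2.07 and 48.97 CPM in members and 2.49, 46.7, 2.91 and 24.3 CPM outside. Tesc and Ehd3 passed the filter only through mutants where they were high, and so had to be higher there than in control. Nfkbia, the inhibitor that NF-κB itself induces, was at 26.3, 279.9, 50.9 and 219 CPM, a ratio of 10.7 (8.74 to 13.1) in Ikk2CA, 1.94 (1.53 to 2.47) in Jak2V617F and 8.33 (6.54 to 10.7) in the double mutant. Ltb, the lymphotoxin beta ligand, was at 4.08, 100.5, 8.98 and 80.5 CPM. Of the NF-κB list, Nfkbia, Ltb and Junb were at least 2-fold higher in Ikk2CA and the double mutant, and Junb in Jak2V617F. All 3 passed the filter only through the mutants where they were high, so their count says nothing of the list. The 6 list genes at 50 CPM or more in control held 0 past 2-fold in every mutant. The subunit gene Nfkb1 was at 52.01, 64.2, 87.2 and 72.9 CPM and the kinase gene Ikbkb at 41.6, 46.6, 49.3 and 42.4 CPM, and these counts do not separate mutant from normal alleles.

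The promoters of Nfkbia and Tesc are printed because these genes separated the libraries with Ikk2-CA from the others. Each covers the 250 bases before the RefSeq start (GRCm38.p6), at chr12:55492648-55492897 on the minus strand and chr5:118027493-118027742 on the plus strand, written in the direction of the gene. The capitals in Nfkbia mark a form of the NF-κB site, GGG then NN and TTTCC, found here on the other strand, 29 bases before the start.
Nfkbia: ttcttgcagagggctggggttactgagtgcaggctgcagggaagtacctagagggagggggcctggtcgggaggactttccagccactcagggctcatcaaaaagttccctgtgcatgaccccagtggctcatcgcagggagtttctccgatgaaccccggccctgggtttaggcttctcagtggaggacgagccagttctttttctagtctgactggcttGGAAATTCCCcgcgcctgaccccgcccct
Tesc: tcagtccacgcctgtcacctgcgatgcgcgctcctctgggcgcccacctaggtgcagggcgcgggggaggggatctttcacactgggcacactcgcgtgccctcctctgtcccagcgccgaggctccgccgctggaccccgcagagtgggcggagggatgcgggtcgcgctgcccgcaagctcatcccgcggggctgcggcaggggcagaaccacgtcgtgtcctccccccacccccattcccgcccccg
The Tesc window holds none of the letters searched, which were this form on both strands (1.41% of all windows), AGATAA and the Klf1 letters CCACACCC (3.20%). That says only that these letters are not in this window.

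**Figure D4:**
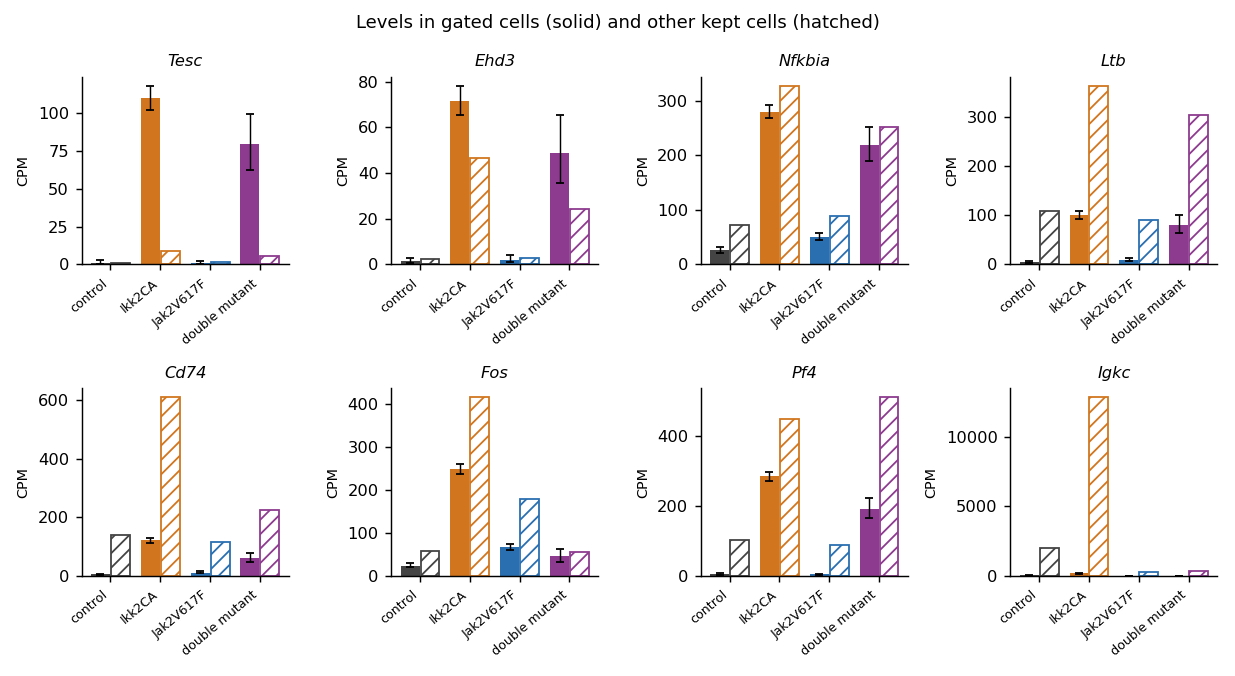
CPM in members (solid bars, 95% exact Poisson intervals) and in other kept cells (hatched bars) for 8 genes in the 4 libraries, on linear axes that start at 0. Tesc and Ehd3 are higher in members than outside in the 2 libraries with Ikk2-CA, while Igkc, at 162 CPM in Ikk2CA members, is far below the other cells.

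Stress and immediate early genes were at higher levels in Ikk2CA members. On this list only Jun and Jund reached 50 CPM in control, and both were past 2-fold in Ikk2CA, where 3.1% of all genes were, and in neither of the other mutants. The other genes passed the filter only through a mutant where they were high, so no count over the list is given. Fos, a subunit of the AP-1 factor, was at 23.7, 249, 66.3 and 45.7 CPM and its partner Jun at 119.8, 558, 188 and 181 CPM. Dusp1, a phosphatase that curbs MAP kinases, was at 16.3, 120.0, 29.2 and 34.8 CPM and Egr1, an early response factor, at 20.1, 112, 55.2 and 51.2 CPM. Jund, a relative of Jun, was at 106, 401, 143 and 174 CPM. Fos, Jun, Dusp1 and Egr1 were each highest in Ikk2CA, and the double mutant did not reach its levels. Outside the gate Fos was at 57.00, 416, 178 and 56.5 CPM, so the Ikk2CA and Jak2V617F cells differed from control there too. Of 4 interferon-stimulated genes at 50 CPM or more in control, 1, the membrane protein gene Ifitm3, was at least 2-fold higher in Ikk2CA and 0 were in Jak2V617F or the double mutant. With Car1 classes weighted as in control its log2 ratio in Ikk2CA was 0.95, below 2-fold. Gbp2 and Iigp1 passed the filter only through Ikk2CA and so had to be higher there than in control. Gbp2 was at 5.86, 64.8, 37.98 and 16.3 CPM and Iigp1 at 7.65, 72.9, 29.9 and 6.53 CPM, both GTPases against microbes inside cells. Ly6a, given above, was highest in Ikk2CA members, at 9.18 (5.97 to 14.8) times control.

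Several genes of other lineages were also higher in Ikk2CA members. Pf4, the platelet chemokine, was at 4.59, 285, 3.45 and 193 CPM. In Ikk2CA 26.7% of these UMIs came from 1 cell, and Pf4 was at 1675, 210 and 36.9 CPM from the lowest to the highest Car1 class. Double-mutant members had it at 683, 267 and 33.7 CPM, so Pf4 was highest in both where Car1 was low. Outside the gate Pf4 was at 103, 450.0, 88.2 and 511 CPM. Cd74, the invariant chain of MHC class II, was at 4.33, 121, 10.8 and 60.9 CPM, and the class II gene H2-Aa at 6.37, 95.5, 13.4 and 56.6 CPM. The immunoglobulin gene Igkc was at 15.04, 162, 3.68 and 4.35 CPM and is named here after its values were seen, as is Vpreb3 below. Pf4, Cd74, H2-Aa and Igkc passed the filter only through mutants where they were high, and so had to be higher there than in control. Igkc was seen in 97.8% of Ikk2CA members, but its level there was 1.26% of that in the other kept cells, and that of Vpreb3, a B cell precursor gene, 0.813%. Cd74 in members was at 19.9% of the outside level, H2-Aa at 41.6%, Ltb at 27.6% and Nfkbia at 85.6%. The levels in members were thus not a fixed percentage of those outside. The summed B cell list was at 39.5, 311, 25.3 and 82.7 CPM in members. The part of free RNA and of doublets in these levels was not tested. In the double mutant 1 cell held 48.2% of the Cd74 UMIs, and its log2 ratio to control was 3.81, or 3.33 without the top cell of each library and 2.88 with Car1 classes weighted as in control.

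Among Jak2V617F members the transferrin receptor was high, and some low-count cytokine feedback genes, but not all, were above control. Tfrc, which takes up iron, was at 99.4, 95.3, 266 and 108 CPM, a ratio of 2.67 (2.38 to 3.01) to control. Jak2V617F alone was high, and the double mutant, at 1.08 (0.860 to 1.35) times control, was not. Tfrc was the only erythroid commitment gene at least 2-fold higher in this library, where 0.764% of all genes were. It was higher than control in each Car1 class, at 134, 215 and 308 CPM against 24.2, 36.6 and 120.2 CPM. Cish, a feedback inhibitor that Stat5 induces, was at 2.04, 4.13, 17.3 and 6.53 CPM, from 8, 28, 75 and 6 UMIs. Socs1, another such inhibitor, was at 0.255, 4.57, 10.4 and 3.26 CPM from 1, 31, 45 and 3 UMIs. Osm, the cytokine oncostatin M and a Stat5 target, was at 2.55, 5.76, 11.7 and 7.62 CPM. Podxl, the surface protein podocalyxin, was at 0.765, 0.148, 24.9 and 6.53 CPM from 3, 1, 108 and 6 UMIs, a Jak2V617F ratio of 32.5 (10.8 to 160.1). In these 4 genes Jak2V617F was the highest library. Socs2, another feedback inhibitor, was highest in the double mutant, at 1.02, 1.33, 6.22 and 9.79 CPM from 4, 9, 27 and 9 UMIs. Socs3, of the same family, was near control, at 1.02, 1.92, 1.15 and 0 CPM from 4, 13, 5 and 0 UMIs. These 6 genes lay below the 50 CPM needed for the counts above. Of the list of Epo receptor and STAT5 targets, 5 genes were measured and none passed 2-fold in Jak2V617F (median log2 0.39), with Pim1, a survival kinase, at 65.5, 95.3, 101 and 56.6 CPM. Outside the gate Cish was at 11.5, 7.18, 18.01 and 8.995 CPM and Podxl at 0.549, 0.304, 2.05 and 1.24 CPM. Jak2 itself was at 26.00, 24.3, 23.7 and 21.8 CPM.

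Tcrg-C1, a constant region gene of the T cell receptor gamma chain, was at 0, 0, 138 and 2.18 CPM and is named after its values were seen. No UMI was found in control or Ikk2CA members, and 598 were found in Jak2V617F. The lower end of the exact interval of the ratio to control was 146, with 54.8% of the Jak2V617F members holding a UMI and no cell more than 5.35% of them. Outside the gate it was at 1.92, 1.03, 1.42 and 1.11 CPM. Over the 3 Car1 classes of Jak2V617F it was at 68.8, 124 and 153 CPM. No Cd3e UMI, a T cell marker, was seen in members of any library. Among the highest ratios in Jak2V617F were also Serpina3g, a protease inhibitor, at 24.5, 132, 115 and 185 CPM, the lipid-transfer gene Vps13c at 17.8, 18.6, 64.5 and 23.9 CPM, the fatty acid-binding gene Fabp5 at 107, 127, 313 and 169 CPM and Fosb at 17.6, 93.7, 59.4 and 38.1 CPM. Serpina3g, Vps13c and Fosb passed the filter only through mutants where they were high, and so had to be higher there than in control. The histone gene Hist1h2ap, at 98.9, 856, 323 and 244 CPM, was at 69.2, 687, 263 and 156 CPM in the other cells.

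**Figure D5:**
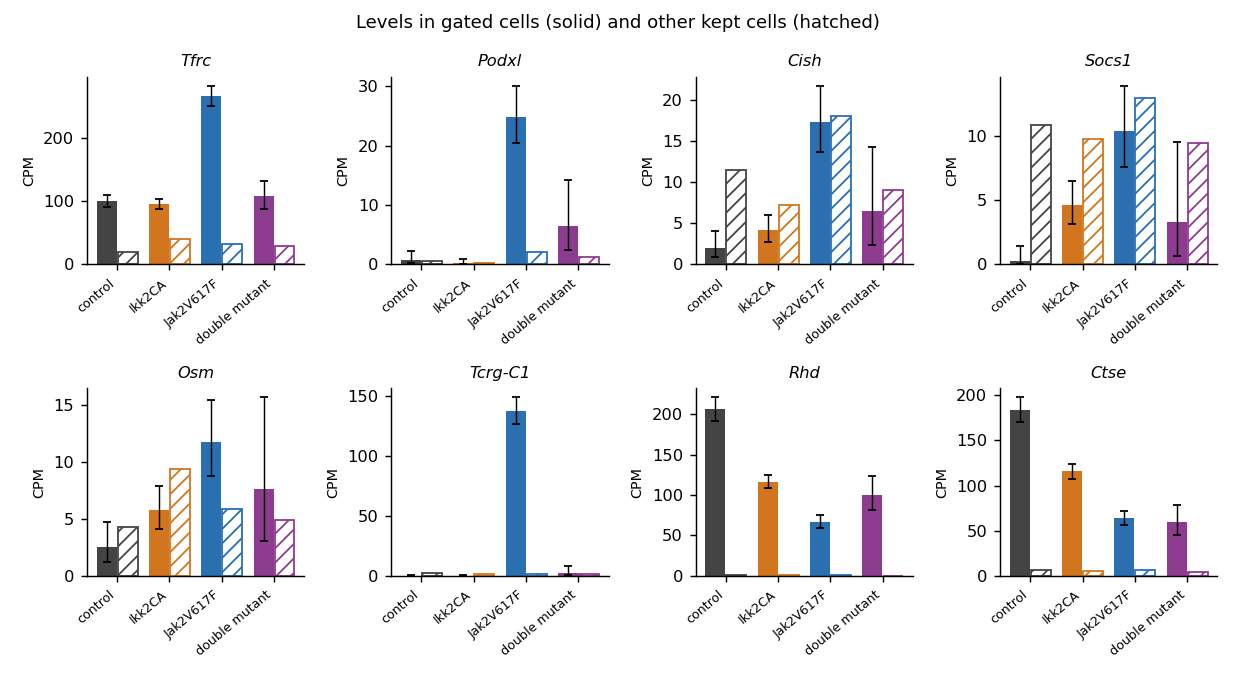
CPM in members (solid bars, 95% exact Poisson intervals) and in other kept cells (hatched bars) for 8 genes in the 4 libraries, on linear axes that start at 0. Tfrc, Podxl, Cish, Socs1, Osm and Tcrg-C1 are highest among members in Jak2V617F, and Rhd and Ctse are highest in control.

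In the double mutant, Tesc, Pf4, Ltb, Cd74, H2-Aa and Nfkbia were among the 8 highest ratios to the shared control, with the levels given above. The other 2 were Serpina3g and the histone gene Hist1h4d, the latter at 46.7, 258, 90.5 and 328 CPM. All 8 were below 50 CPM in control, so they passed the filter only through the double mutant and had to be higher there. Of the Jak2V617F genes, Tfrc was near control in the double mutant, and Podxl, Cish and Osm lay between control and Jak2V617F. Ly6e, a relative of Ly6a, was at 347, 1021, 481 and 1025 CPM and Cd48, a surface protein of committed progenitors, at 47.4, 69.4, 118 and 131 CPM. Thinned to 5000 UMIs a cell the double mutant kept 9 members, too few to compare single genes.

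Members held transcripts of dividing cells more often than other cells did. After thinning, Mki67, a marker of dividing cells, had a UMI in 57.8%, 67.0%, 66.5% and 63.6% of members, against 25.0%, 37.7%, 32.2% and 31.6% of other cells. Of the S phase list, 0 of 29 genes in Ikk2CA, 6 of 30 in Jak2V617F and 4 of 29 in the double mutant were above control. The median log2 ratios were -0.34, -0.24 and -0.31, beside -0.11, 0.02 and -0.09 over all genes. No gene of this list was past 2-fold. The helicase subunit gene Mcm2 was at 134, 85.6, 98.5 and 71.8 CPM and the DNA flap nuclease gene Fen1 at 176, 111, 123 and 119.7 CPM. G2 and M phase genes were above control in 13 of 25 cases in Ikk2CA (median 0.02) and 14 of 26 in Jak2V617F (median 0.04). In the double mutant 20 of 26 were above control (median 0.18). Relative to the medians over all genes these values were 0.13, 0.03 and 0.27, and no gene was past 2-fold. Genes of MYC and ribosome biogenesis were above control in 22 of 27 cases in Jak2V617F (median 0.13) in 3 of 26 in Ikk2CA (median -0.19) and in 5 of 26 in the double mutant (median -0.14). None passed 2-fold, and the medians over all genes were 0.02, -0.11 and -0.09 in that order. Relative to these the list medians were 0.12, -0.08 and -0.05. Myc, the growth-promoting factor, was at 168, 96.1, 217 and 119.7 CPM, highest in Jak2V617F and lowest in Ikk2CA.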

How the data were processed

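Single-cell RNA was measured in 4 libraries, 1 per genotype. The deposited matrices hold whole UMI counts for 32285 genes, made with Cell Ranger 4.0.0 per the file headers, while the design text names Cell Ranger 3.0.1. The submitters' processing notes name the mm10 build and Seurat 4.0.0. Raw counts of members were summed per library in Python 3.11.15 and scaled to CPM. Ratios to control used genes with at least 50 CPM in either sum, and 0 UMIs were set to 3 UMIs. With 1 library a genotype there was no test. Intervals are 95% and exact (Clopper-Pearson for shares, Poisson for sums, binomial for ratios), and cover counting error only. UMIs were thinned to 5000 a cell where shares were compared across depths, leaving out 838, 405, 1361 and 146 shallower cells. Doublets were scored with Scrublet in scanpy 1.11.5. It marked 0, 265, 0 and 1 barcodes, 7 of them Ikk2CA members, too few in 3 libraries to rely on, so none were removed and the highest scores were left out as an alternative. Genes named are the 8 highest and 8 lowest ratios per mutant, the 20 genes highest in members over other cells, and up to 6 per gene list, or all of the erythroid, haem, globin, Epo and STAT5, sort marker and engineered-locus lists. Tcrg-C1, Igkc and Vpreb3 fall outside this rule and were named after their values were seen. The members and lists were chosen with earlier results of these data known. Alternatives were another Car1 or Klf1 limit, thinning, all barcodes, doublet scores, cells with no Xist UMI, means over cells, edgeR 4.0.16 (TMM) and DESeq2 1.42.0 size factors, and 20 or 200 CPM. Weighting of Car1 classes, leaving out the top cell of a gene and counting list genes by the sum that reached 50 CPM were chosen after seeing the data. Some measured genes are not reported here.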

Additional observations from a re-analysis of the deposited data

How the results depend on the processing

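No paired analysis was possible because each genotype had 1 library. Of the 18 alternative values of the 3 share ratios, 17 moved by less than their counting intervals, the exception being Ikk2CA at 1.79 in cells with no Xist UMI. Counts of genes past 2-fold depended on the settings, and 48 of 72 stayed within 1.5 times. With cells thinned to 5000 UMIs, which left 9 double-mutant members, higher and lower genes numbered 141 and 155 in Ikk2CA, 133 and 93 in Jak2V617F, and 412 and 445 in the double mutant. At 20 CPM they numbered 156 and 55, 58 and 37, and 155 and 260, and at 200 CPM 28 and 4, 7 and 3, and 19 and 6. In cells with no Xist UMI, higher genes numbered 41 in Jak2V617F, and the double mutant had 116 higher and 121 lower. Lower genes in Ikk2CA numbered 30 with means over cells and 11 with TMM. Higher genes in the double mutant numbered 51 with Car1 classes weighted as in control, and TMM gave 94 higher and 48 lower there. Reversals, counted for genes past 2-fold and for lists with a median log2 of 0.5 or more either way, occurred in the double mutant alone. The Ermap ratio, under 2-fold in Jak2V617F, also changed sign with Car1 weighting, from -0.13 to 0.14. Thinning gave log2 ratios of -0.53 for Lmo4 and -1.19 for Junb, and a median of -0.19 for the stress and immediate early list. The thinned values of Tspan8 (0.40), Prss50 (0.18) and Klf3 (0.18) are those that 3 UMIs give. As 0 UMIs were set to 3 UMIs, these values are not read as reversals. Hbb-bt, at least 2-fold higher than control in the main setting, was at -3.19 in cells with no Xist UMI and at -1.90 without its top cell. For the other reversals the cause was not tested beyond the fewer cells and UMIs that thinning leaves. With Car1 weighting, Fos (0.94) and Egr1 (0.80) in Jak2V617F ended below 2-fold, and with TMM so did Ermap (-0.91) in the double mutant. The 22 double-mutant cells limit every ratio of that library.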
